A study of Ovis aries and Bos taurus with 10 samples.

Results

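The contractile apparatus of smooth muscle was followed through 5 genes, ACTA2, MYH11, CNN1, TAGLN and DES, on the 10 arrays of a study of sheep follicles. Every probe set whose chip annotation gives one of these symbols alone was taken. Each symbol had 1 probe set, so 5 of the 9155 gene symbols on the Affymetrix Bovine Genome Array were described. The probe sets were Bt.12825.1.S1_at for ACTA2, Bt.12685.1.S1_at for MYH11, Bt.6630.1.S1_at for CNN1, Bt.16055.2.S1_a_at for TAGLN and Bt.6141.1.S1_at for DES.

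Smooth muscle shortens when thick filaments of myosin pull on thin filaments of actin, after a kinase has phosphorylated the myosin light chain. The filaments are anchored to dense bodies and to a web of intermediate filaments. In the ovary such cells are known from the walls of blood vessels, from the stroma and, around larger follicles, from the theca, whereas oocytes and granulosa cells (GC) are not counted among them.

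Of the arrays, 6 held cells cut from sections of newborn lamb ovaries (under 1 day of age) by laser capture microdissection (LCM). Oocytes of primordial, primary and secondary follicles are called PDO, PMO and SECO, and the GC of these follicles PDG, PMG and SECG. The RNA of each came from a pool of 2 animals at the primordial and secondary stages and of 4 at the primary stage, went through 2 rounds of T7 amplification and received the Arcturus biotin turbo label. The other 4 arrays held whole fetal ovary. Ovine tissue of 132 days post coitum was labelled by 3 protocols: 1 amplification round with the Affymetrix label (P1), 2 rounds with the Affymetrix label (P2), and 2 rounds with the biotin turbo label, as for the LCM samples (P3). Bovine tissue of 8 months post coitum was labelled by P1. No treatment or genotype was compared. Each condition had 1 array, pooled animals could not be separated, and ovine RNA was hybridized to bovine probes. The stages stood in as replicates of a compartment, so p-values measure the spread between these arrays alone.

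Signals are MAS 5.0 intensities scaled on every array to a trimmed mean of 100. A probe set was taken as detected at or above a limit set for each array, which lay between 45.8 and 74.2 on the LCM arrays and between 28.9 and 44.7 on the fetal ovary arrays. Signals of different probe sets are not comparable as levels, so each gene was compared only with itself.

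The labels were checked against marker genes. The summed signal of 8 oocyte markers was 7735 on PDO against 3053 on PDG and 7920 on PMO against 5627 on PMG. At the secondary stage the sum was lower on the oocyte array, 2723 on SECO against 3448 on SECG, which goes against the label. Single markers were unequal there. On SECO against SECG, ZP2 (348 against 1043) and ZP4 (493 against 987) were lower. GDF9 (162 against 169) and KIT (225 against 241) were slightly lower. MAEL (407 against 57.9), ZP3 (751 against 683) and NLRP5 (297 against 254) were higher, and BMP15 was undetected on both. Of 6 GC markers on the array, AMH, FOXL2 and KITLG were detected on none of the LCM arrays. The summed signal of the 6 was 146, 364 and 364 on PDO, PMO and SECO and 295, 723 and 1728 on PDG, PMG and SECG. Red blood cell markers summed to 4460 on SECO and to between 67.8 and 796 on the other 5 LCM arrays. The differences between compartments and from the whole ovary are therefore also given without the secondary stage.

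MYH11, the smooth muscle myosin heavy chain and motor of the thick filament, was detected on all 10 arrays, as were 19.3% of all probe sets. Its signal was 356 on PDO, 336 on PMO and 352 on SECO. In GC it was 1814 on PDG, 897 on PMG and 1186 on SECG. The 3 GC arrays lay above the 3 oocyte arrays without overlap, and the oocyte arrays differed little among themselves.

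ACTA2, the alpha smooth muscle actin of the thin filament, gave 90.3 on PDO, 49.6 on PMO and 83.2 on SECO. In GC it gave 370 on PDG, 99.4 on PMG and 78.2 on SECG. Only PDG stood clear of the other LCM arrays, the PMO signal was under the limit of its array, and the compartments overlapped at the secondary stage.

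CNN1, calponin, an actin binding protein that restrains the myosin ATPase, gave 101 on PDO, 73.7 on PMO and 113 on SECO. Its GC signals were 230 on PDG, 109.5 on PMG and 121 on SECG. The PMO signal lay just under the limit of 74.2 on that array, and PMG lay below SECO, so that the compartments overlapped, although GC lay above oocytes within each stage.

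TAGLN, transgelin, an actin cross-linking protein of smooth muscle, was detected on none of the LCM arrays. Its signals were 12.2, 1.96 and 21.6 on PDO, PMO and SECO and 7.67, 5.23 and 19.3 on PDG, PMG and SECG. DES, desmin, the intermediate filament protein of muscle, was also under the limits on all 6. Its signals were 23.0, 4.30 and 24.6 in oocytes and 7.21, 32.3 and 16.4 in GC. Values under the limit give no order of oocytes and GC.

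**Figure D1:**
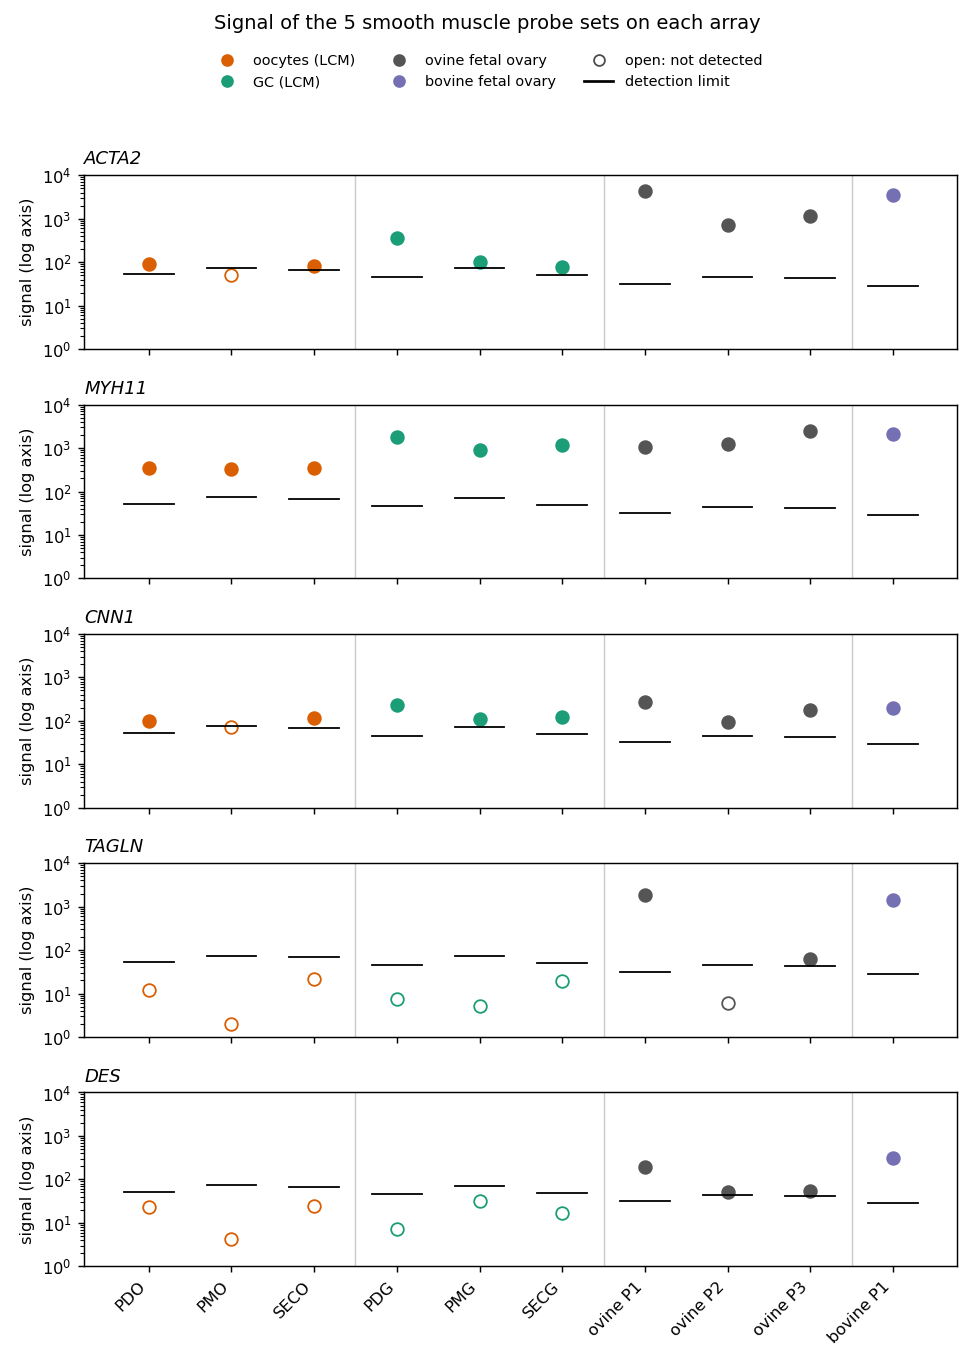
Signal of the 5 smooth muscle probe sets (log axis) on the 6 LCM arrays, the 3 ovine fetal ovary arrays and the bovine fetal ovary array. Each point is 1 array, open points were not detected, and the black bar is the detection limit of that array; MYH11 stood above its limit on all 10, and TAGLN and DES below theirs on the 6 LCM arrays.

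In whole fetal ovary all 5 genes were detected on at least 3 of the 4 arrays. ACTA2 gave 4240 on ovine P1, 724 on P2, 1137 on P3 and 3557 on the bovine array. MYH11 gave 1081, 1209, 2428 and 2081 in the same order. The order of the arrays was thus not shared, since P1 was on the deposited scale the highest ovine array for ACTA2 and the lowest for MYH11.

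CNN1 gave 268, 92.6, 173 and 196 on ovine P1, P2, P3 and bovine P1. TAGLN gave 1870, 6, 61.7 and 1433 on these arrays, and DES 188, 52.2, 52.7 and 314. Of these arrays, TAGLN was not detected on P2. Detection on all 4 fetal ovary arrays held for 30.9% of all probe sets and for the other 4 genes.

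The first comparison asked which genes differ between the oocyte and its GC. It was made on log2(signal + 20) with limma over 11642 probe sets, with stage in the model; the constant understates the change of low signals. MYH11 was lower in oocytes by 1.78 on this scale, −1.78 ± 0.33 (SE; 95% confidence interval −2.55 to −1.01; 3 arrays a compartment). This was the 19th lowest of the 11642 differences. The unadjusted p of limma was 0.000812 and the Benjamini-Hochberg adjusted p 0.406, so it did not pass the threshold of 0.05. Without the secondary stage it was −1.82, with a limma adjusted p of 0.406. As plain ratios of signals, GC exceeded oocytes 5.09 times at the primordial, 2.67 times at the primary and 3.37 times at the secondary stage.

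For ACTA2 the limma difference was −0.84 ± 0.41 (SE; interval −1.80 to 0.12), with an unadjusted p of 0.0775 and an adjusted p of 0.488. The stages were unequal. The ratio of GC to oocyte was 4.10 at the primordial stage, at least 1.34 at the primary stage, where PMO was under its limit, and 0.940 at the secondary stage. Leaving out the primordial stage gave −0.35 and leaving out the secondary stage −1.30 (limma adjusted p = 0.406).

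For CNN1 the limma difference was −0.53 ± 0.33 (SE; interval −1.30 to 0.24), with an unadjusted p of 0.15 and an adjusted p of 0.565. The GC to oocyte ratio was 2.27 at the primordial stage, at least 1.48 at the primary stage and 1.07 at the secondary stage. Without the primordial stage the difference was −0.28 and without the secondary stage −0.75. TAGLN and DES, detected on no LCM array, were not among the probe sets tested.

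Limma called 0 of the 11642 probe sets (0%) at an adjusted p under 0.05, the smallest adjusted p being 0.406, and 1295 (11.1%) at an unadjusted p under 0.05. Of the 3 genes tested, MYH11 alone was among these 1295. The lowest GC array exceeded the highest oocyte array for MYH11 alone of the 3, as it did for 7.71% of all probe sets tested. GC exceeded oocytes at all 3 stages for MYH11 and CNN1, and for 17.1% of all probe sets.

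**Figure D2:**
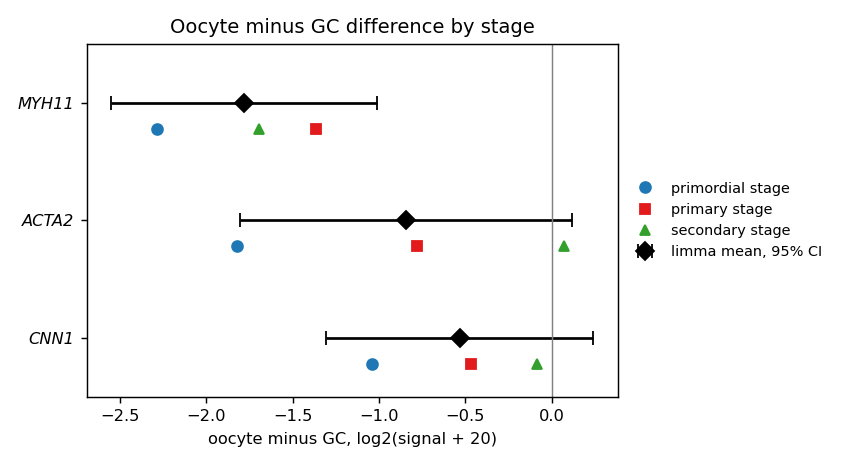
Oocyte minus GC difference in log2(signal + 20) for the 3 detected genes, as the limma mean with its 95% confidence interval (black, 3 arrays a compartment) and at each stage (coloured, 1 array against 1). The MYH11 points lay between −2.29 and −1.36, whereas those of ACTA2 and CNN1 approached 0 from the primordial to the secondary stage.

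Markers of other cells were measured beside these differences. Of 7 stroma and matrix markers, 4 were above the limit in some oocyte array and 7 in some GC array. Their summed signal ranged from 4429 to 15764 in oocytes and from 12701 to 47110 in GC. It was higher in GC at the primordial stage (47110 against 15764) and at the primary stage (29523 against 4429), and lower at the secondary stage (12701 against 15688). The markers were unequal. At the secondary stage COL1A2 (7052 against 8749) and COL3A1 (3346 against 4883) were lower in GC. DCN was higher on each GC array (2113 to 5194) than on each oocyte array (1467 to 1848). PDGFRA was detected on 3 GC arrays and 0 oocyte arrays. The GC to oocyte ratio at the secondary stage was 3.37 for MYH11, 0.940 for ACTA2 and 1.07 for CNN1. Whether the stroma markers bear on these ratios was not tested.

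The 6 endothelial markers on the array summed to between 721 and 1160 in oocytes and between 243 and 2336 in GC, with PDG the highest of the LCM arrays for this sum as for MYH11, ACTA2 and CNN1. KDR, VWF and CLDN5 were detected on no LCM array. The oocyte minus GC limma difference was 0.78 for TEK, −0.57 for PECAM1 and −0.10 for CDH5, so these markers were unequal. The 5 pericyte markers summed to between 207 and 322 in oocytes and between 200 and 316 in GC, and RGS5 was detected on no LCM array. The 9 skeletal and cardiac muscle markers on the array summed to between 514 and 630 in oocytes and between 620 and 935 in GC, and MYH1, TNNT3, TNNI2 and ACTA1 were detected on no LCM array. Of them CKM, the muscle creatine kinase, was higher on each GC array (128 to 410) than on each oocyte array (75.0 to 109), with a limma difference of −1.24, an unadjusted p of 0.0203 and an adjusted p of 0.414. MB went the other way, with 73.1 to 82.7 on the oocyte arrays and 41.5 to 55.9 on the GC arrays. Its limma difference was 0.54, and it was detected on 3 of the 6 arrays. Of the other tested markers of this list, ACTC1 differed by 0.42, MYH7 by −0.60 and TNNT1 by −0.39. The part of stroma, vessel wall, pericyte or other muscle RNA in the differences of the contractile genes was not tested. Fewer cells of a type and less RNA per cell cannot be told apart in these pooled samples.

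The second comparison asked which genes change as the follicle grows. In GC, ACTA2 was 3.72 times higher on PDG than on PMG and 4.73 times higher than on SECG, differences of −1.71 and −1.99 in log2(signal + 20). In GC, 9.17% of detected probe sets were at least 2-fold lower on PMG than on PDG, and 9.17% on SECG than on PDG. MYH11 was 2.02 and 1.53 times higher on PDG than on PMG and SECG. CNN1 differed by −0.95 and −0.82 on the log2 scale for the same pairs. PDG was the highest GC array for these 3 genes.

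In oocytes the same differences were small for MYH11, −0.08 for PMO and −0.02 for SECO against PDO. For ACTA2 they were −0.66, with PMO under its limit, and −0.10. For CNN1 they were −0.37, again with PMO under its limit, and 0.14. None of the 3 was lower by 2-fold in oocytes, as were 7.74% of detected probe sets on PMO and 11.3% on SECO against PDO.

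With both compartments in the limma fit, ACTA2 differed by −1.19 ± 0.50 (SE; 2 arrays a stage) between the primary and the primordial stage, with an unadjusted p of 0.0488 and an adjusted p of 0.762. Between the secondary and the primordial stage it differed by −1.04 ± 0.50, with an adjusted p of 0.491. MYH11 gave −0.54 and −0.31 and CNN1 −0.66 and −0.34 for the same contrasts. In the F test over both contrasts the limma adjusted p was 0.547 for ACTA2, 0.764 for MYH11 and 0.704 for CNN1. Of all probe sets 0 (0%) passed an adjusted p under 0.05 in either contrast or in the F test, and 762 (6.55%) and 1325 (11.4%) passed an unadjusted p under 0.05 in the 2 contrasts and 1172 in the F test.

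The captured cells were then set against the whole ovine fetal ovary labelled in the same way (P3). This is 1 array of another tissue and age, so no test was made. The 6 LCM arrays read lower than P3 for ACTA2 and MYH11, and 5 of the 6 for CNN1. Of all detected probe sets, 18.1% read lower on all 6. By the median of the 6, ACTA2 and MYH11 were at least 2-fold lower, as were 11.2% of all detected probe sets. By the median of the 4 primordial and primary arrays the same 2 were, as were 13.4% of detected probe sets. TAGLN and DES, undetected on the LCM arrays, were not counted.

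ACTA2 lay furthest from the whole ovary. Its 6 differences in log2(signal + 20) ranged from −4.05 on PMO to −1.57 on PDG with a median of −3.44, the 18th lowest of 12134 probe sets. As the PMO signal was undetected, its difference is only bounded, at −3.62 or lower. Without the secondary stage the median was −3.33. As plain ratios, P3 exceeded PDG 3.07 times and SECG 14.5 times. All 6 were at least 2-fold below P3, which held for 2.28% of all probe sets.

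MYH11 differed by −0.42 on PDG, −1.42 on PMG and −1.02 on SECG from P3, and by −2.70, −2.78 and −2.72 on PDO, PMO and SECO. Its median difference was −2.06, with or without the secondary stage. The GC thus read nearer to the whole ovary than the oocytes did. CNN1 differed by between −1.04 and 0.37 with a median of −0.56, or −0.62 without the secondary stage, and PDG, at 230, read above P3 at 173.

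TAGLN and DES were detected on P3 and on none of the 6 LCM arrays, as were 5.42% of the 9084 probe sets detected on P3. Their P3 signals of 61.7 and 52.7 lay close to the P3 limit of 42.3, and below the highest LCM limit of 74.2, so no fold could be given for either. DES was not among the brightest 30% on P3, so its detection there depends on the limit used.

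The 5 genes differed unequally between the labelling protocols of the whole ovary. With 2 amplification rounds in place of 1 (P2 against P1), TAGLN gave 6 in place of 1870, under the limit of 44.7, and was thus at least 41.8-fold lower. With undetected signals set to the limit of their array this was the 3rd lowest of the 12707 differences, at −4.87 in log2(signal + 20). Of the 618 probe sets with a P1 signal of at least 1000, TAGLN was 1 of 4 (0.647%) that were not detected on P2. ACTA2 was lower by 5.86 times and CNN1 by 2.89 times. In all 4 of the 5 genes were at least 2-fold lower on P2, as were 22.9% of detected probe sets, and MYH11 differed by 0.16 on the log2 scale, or by −0.03 after quantile normalization.

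Under P3, the protocol of the LCM arrays, TAGLN differed from P1 by −4.53 in log2(signal + 20), the 5th lowest of 12755 differences with undetected signals set to the limit. ACTA2 differed by −1.88, DES by −1.52 and CNN1 by −0.58. MYH11 was higher, by 1.15, or by 0.74 after quantile normalization. Of the 5, 3 were at least 2-fold lower, beside 25.7% of detected probe sets, and 1 at least 2-fold higher, beside 14.2%. Between the 2 protocols with 2 rounds, P3 read above P2 for all 5, as it did for 3067 of all 5900 genes. For DES the signals were nearly equal, 52.7 against 52.2. In log2(signal + 20), 6.6% of detected probe sets were at least 2-fold higher, and of the 5 genes only TAGLN, whose P2 signal was undetected. MYH11 was 2.01 times higher and ACTA2 1.57 times. With the limit of P2 in place of its signal, TAGLN was at least 1.38-fold higher, and DES differed by 0.01 on the log2 scale. The single array of each protocol gives no measure of spread.

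**Figure D3:**
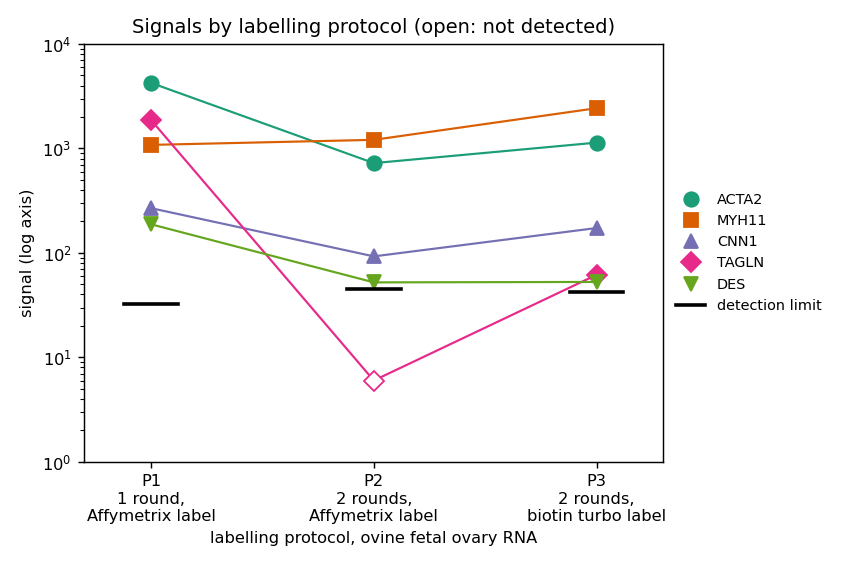
Signal (log axis) of the 5 genes in ovine fetal ovary by labelling protocol, 1 array each, with the detection limit of each array as a black bar and the undetected value open. TAGLN gave 1870 under P1 and 6 under P2, whereas MYH11 read 1081, 1209 and 2428 under P1, P2 and P3.

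The bovine ovary served to judge the hybridization of ovine RNA to bovine probes. In ovine minus bovine P1, ACTA2 differed by 0.25, CNN1 by 0.41 and TAGLN by 0.38 in log2(signal + 20). MYH11 differed by −0.93 and DES by −0.69. None of the 5 reached 2-fold on the deposited scale, although MYH11 did at −1.08 after quantile normalization, whereas 20.5% of detected probe sets were at least 2-fold lower and 12.3% at least 2-fold higher in the ovine array. Species, fetal age and probe match cannot be told apart here.

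Among the 10 arrays the patterns of the 5 genes were only partly alike. Correlations of log2(signal + 20) are given as a description, since the 3 ovine fetal ovary arrays share a tissue and the LCM arrays share stages and a label. Pearson's r between pairs of the 5 ranged from 0.40 for MYH11 and TAGLN to 0.92 for TAGLN and DES. Over the 6 LCM arrays, ACTA2 and CNN1 gave 0.96, both being highest on PDG. Of 6169 genes compared over the 10 arrays, those most like ACTA2 were PRCP (0.97), SPARC (0.97) and C1R (0.96). Those most like MYH11 were C1QTNF1 (0.90), ALDH2 (0.88) and MARVELD1 (0.88).

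For CNN1 the most alike were VIM (0.92), FKBP10 (0.91) and KCNJ8 (0.91). For TAGLN they were RPS9 (0.99), IGF2 (0.98) and MFAP2 (0.97), and for DES MTHFD1 (0.96), PLXNB2 (0.96) and PPP4C (0.96). The TAGLN and DES values rest on the fetal ovary arrays, as both were undetected in captured cells. TAGLN gave 1870 on ovine P1 and 1433 on bovine P1, and at most 61.7 on the other arrays. By rank (Spearman) its correlation was lower, 0.79 with RPS9, 0.66 with IGF2 and 0.53 with MFAP2.

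The other genes of the smooth muscle apparatus were taken from a list of 44 symbols, of which 30 were on the array, each represented by its brightest probe set. The list was chosen with earlier results of these data known, so its shares beside those of all genes are a description and test nothing. In oocyte minus GC, 25 of them were detected and tested. Of these, 5 were at least 2-fold lower in oocytes, 20% beside 3.06% of all 6271 genes, and 0 at least 2-fold higher beside 2.6%. Their median difference was −0.45 in log2(signal + 20), against 0.05 for all genes. Limma gave 0 of the 25 an adjusted p under 0.05 and 8 an unadjusted p under 0.05, beside 10.7% of all genes for the latter. Without the secondary stage 7 were at least 2-fold lower in oocytes and 0 higher, with a median of −0.52. No share of all genes is given for that setting, so these counts have no background. GC exceeded oocytes at all 3 stages for 10 of the 25, beside 16.6% of all genes.

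The 3 largest differences in this direction were TPM2 (−1.90 ± 0.32, SE), TPM1 (−1.79 ± 0.35) and MYLK (−1.42 ± 0.44), each with a limma adjusted p of 0.406. Without the secondary stage they were −2.11, −1.43 and −2.03, again with an adjusted p of 0.406. TPM1 and TPM2 encode tropomyosins, which lie along the thin filament, and MYLK the kinase of the myosin light chain. The TPM2 signal was 221, 107 and 356 on PDO, PMO and SECO and 952, 568 and 1022 on PDG, PMG and SECG, without overlap. TPM1 gave 847, 534 and 750 in oocytes and 2400, 1418 and 4387 in GC, again without overlap. CALD1, caldesmon, and VIM, vimentin, completed the 5 at −1.37 and −1.20. In the other direction the largest were TAGLN2 (0.56), SRF (0.47) and PDLIM3 (0.44). SRF was detected on 1 of the 6 arrays, SECO, and PDLIM3 on 2, and without the secondary stage both were negative, at −0.30 and −0.34, and TAGLN2 was 0.82.

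By group, 3 of the 7 tested genes of the thin filament and its regulation were at least 2-fold lower in oocytes, 1 of 4 of the thick filament, its light chains and kinases, 1 of 8 anchors and intermediate filaments, 0 of 3 of transcriptional control and 0 of 3 actin isoforms. SMTN, LMOD1 and FHL2 were detected on no LCM array, as TAGLN and DES were not. Of all probe sets, 48.5% were detected on at least 1 LCM array. The smooth muscle heavy chain and the tropomyosins thus read higher in GC, without an adjusted p under 0.05. The P3 signals of TAGLN and DES, 61.7 and 52.7, lay below the highest LCM limit of 74.2. Their lack of detection therefore sets no contrast with MYH11 and the tropomyosins.

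**Figure D4:**
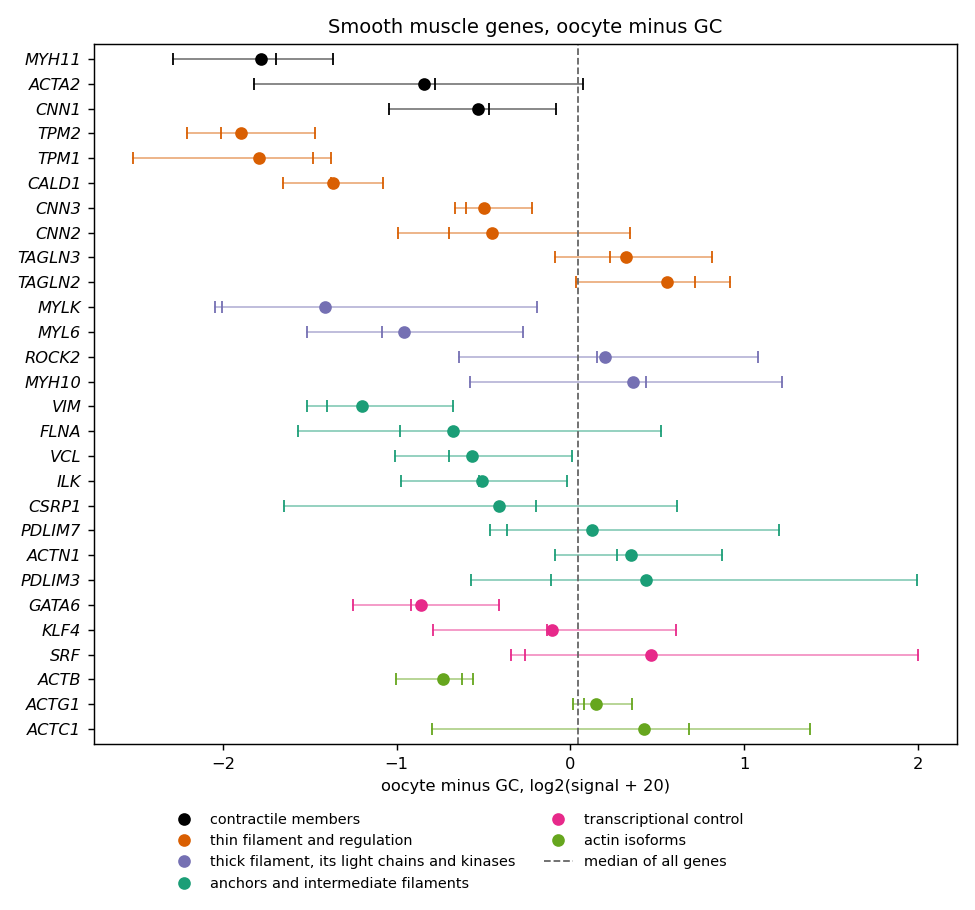
Oocyte minus GC difference in log2(signal + 20) of the 3 detected contractile genes and the 25 other smooth muscle genes tested, coloured by group. The dot is the mean over the 3 stages, the ticks are the single stages joined by a line, and the dashed line is the median of all 6271 genes; TPM2, TPM1 and MYH11 lay furthest to the left.

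Against the whole ovary of P3, 9 of 28 detected genes of the list were at least 2-fold lower in captured cells by the median, 32.1% beside 13.5% of all 6511 genes, and 1 at least 2-fold higher beside 6.71%. By the median of the 4 primordial and primary arrays, 12 of 27 were at least 2-fold lower (44.4%). No share of all genes is given for that setting. Of all 11563 detected probe sets it was 13.4%. By the median of the 6, the lowest were ACTB (−1.64), SMTN (−1.61) and CALD1 (−1.60), and the highest ROCK2 (1.10), ACTG1 (0.70) and CNN3 (0.69). SMTN and ACTA1 (−1.59), both counted among the 9 and among the 12, were undetected on all 6 LCM arrays. Their P3 signals were 78.1 and 71.8, so a 2-fold difference is not established for either. The same holds for CSRP1, counted among the 12, with a P3 signal of 68.3. Of the 4 primordial and primary arrays, CSRP1 was detected on PDG alone. No gene of the list reached the ACTA2 median of −3.44.

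Under P2 against P1, 11 of 28 were at least 2-fold lower, 39.3% beside 17% of all 6585 genes, and 1 at least 2-fold higher beside 13.6%. With undetected signals set to the limit of their array, 10 were lower and 1 higher, as SRF, undetected on P2, then differed by 0.22. FLNA, filamin A, which cross-links actin, differed by −2.79, TAGLN2 by −2.37 and FHL2 by −1.89. MYLK (1.11), TPM2 (0.97) and TAGLN3 (0.94) stood at the other end. FHL2 was undetected on P2 and TAGLN3 on P1, so these 2 differences are bounded only, at −1.58 or lower and 0.44 or higher, and have no place in the order. Under P3 against P1, 7 of 28 were at least 2-fold lower and 3 higher, 25% and 10.7% beside 19.7% and 16.7% of all 6613 genes. FLNA (−2.51), TAGLN2 (−2.39) and PDLIM3 (−2.30) were lowest and ACTN1 (1.86), LMOD1 (1.32) and TPM2 (1.28) highest. PDLIM3 was undetected on P3 and LMOD1 on P1, which bounds them at −2.01 or lower and 0.31 or higher. With undetected signals at the limit, 7 were at least 2-fold lower and 2 higher.

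Between P3 and P2, 4 of 27 were at least 2-fold higher on P3, 14.8% beside 7.29% of all 5900 genes, and 0 lower beside 8.53%. PDLIM7 (1.58), VCL (1.41) and VIM (1.30) led, and PDLIM3 (−0.98, undetected on P3), MYLK (−0.87) and ROCK2 (−0.87) stood at the other end. In ovine minus bovine P1, 4 of 28 were at least 2-fold lower and 3 higher, 14.3% and 10.7% beside 17.7% and 13.3% of all 7172 genes. With undetected signals at the limit, 3 were lower and 3 higher. ACTB (−3.45), CSRP1 (−1.80) and FHL2 (−1.49) were lowest and CALD1 (2.46), ACTC1 (1.52) and TAGLN2 (1.12) highest, whereas the 5 contractile genes stayed within 0.93 of 0 in either direction on the deposited scale.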

How the data were processed

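The authors deposited linear intensities computed by MAS 5.0 in GCOS, each array being scaled to a mean of 100 after trimming 2% of probe sets at either end. The 112 controls were left out, which left 24016 probe sets, 13292 of them with 1 symbol. The detection limit of an array was the lowest signal among its brightest probe sets, as many as its stated share of present calls. The constant of 20 was added before log2. In R 4.3.3, limma 3.58.1 fitted a model of compartment and stage to 11642 probe sets that reached the limit on some LCM array, with 2 residual and 5.43 prior degrees of freedom, two-sided tests and Benjamini-Hochberg adjustment, and was tested on simulated data. Single arrays were compared without a test, at a fold of 2. Python 3.11.15 and matplotlib 3.10.9 were used. Named are the 5 genes, the listed genes past the test or with the 3 largest differences each way, others past 2-fold where a count of 5 is spelled out, and the 3 genes most alike over the arrays, among genes detected on at least 3. The genes and lists were chosen with earlier results of these data known. Alternatives were an added constant of 1 or 50, a floor at 20, quantile normalization, other filters and detection limits, an intensity trend, no stage term, each stage or compartment left out, and folds of 1.5 and 3. The platform gives no read depth; the number of arrays limits the precision.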

Additional observations from a re-analysis of the deposited data

Results flagged for a closer look

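Effects of opposite sign were seen for 2 of the contractile genes, each in single arrays, and neither difference was tested. For ACTA2, oocyte minus GC in log2(signal + 20) was −1.82 at the primordial stage and 0.0719 at the secondary stage, where the oocyte marker sum was also lower on the oocyte array. For CNN1, secondary minus primordial was −0.82 in GC and 0.14 in oocytes. Both values near 0 are small beside the SE of the limma differences, 0.41 for ACTA2 between compartments and 0.41 for CNN1 between stages.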

How the results depend on the processing

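In oocyte minus GC, the sign of MYH11, ACTA2 and CNN1 stayed negative and the adjusted p above 0.05 under all 11 alternatives. The limma adjusted p of MYH11 ranged from 0.0501 with an intensity trend to 0.618 without the primordial stage. With stages left out in turn, differences ranged from −1.99 to −1.53 for MYH11, −1.30 to −0.35 for ACTA2 and −0.75 to −0.28 for CNN1. With the trend 10 probe sets were called, none of the 5 genes among them; between the secondary and the primordial stage 67 were called with the trend and 37 with a constant of 50, again without the 5 genes. With one compartment left out, primary minus primordial ranged from −1.71 to −0.66 for ACTA2, −0.999 to −0.0774 for MYH11 and −0.95 to −0.37 for CNN1, and secondary minus primordial from −1.99 to −0.10 for ACTA2, −0.60 to −0.02 for MYH11 and −0.82 to 0.14 for CNN1, which turned its sign in oocytes alone. The compartment fit paired the oocyte and GC arrays of a stage; without the stage term the limma adjusted p was 0.518 for MYH11, 0.665 for ACTA2 and 0.704 for CNN1.

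After quantile normalization 0 of the 5 genes were at least 2-fold higher on P3 than on P1, and 1 was at least 2-fold lower in the ovine than in the bovine array. For P3 against P2 the number at least 2-fold higher was 2 with a constant of 1 and 0 with a constant of 50 or with undetected signals set to the limit of their array, a setting chosen after seeing the data, like the counts without the secondary stage. Of the other smooth muscle genes, 9 were lower in oocytes at a fold of 1.5 and 2 at a fold of 3. Against P3, 17 and 4 were lower at these folds, 4 and 0 higher, and 0 higher when the probe sets of a gene were averaged. For P3 against P1, 5 and 1 were higher at these folds and 1 with averaged probe sets. No share of all genes is given at these folds or with averaged probe sets, so these counts have no background. The count of detected pairs of a gene and an array, 35 of 50, ranged from 27 to 36 with other limits; a signal of at least 100 left ACTA2 detected on 5 arrays in place of 9, and it or the brightest 30% left DES on 2 in place of 4, neither of them P3. TAGLN and DES were close to or under the limits in captured cells, so nothing about their difference between oocytes and GC could be measured.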
